A study of Mus musculus with 8 samples.

Results

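The serpins are a family of proteins that share a fold in which a reactive loop acts as bait for a protease, and most members trap the protease in a covalent complex. Hepatocytes release several of the best known members into the blood, among them α1-antitrypsin, antithrombin and α2-antiplasmin, whereas most of the Serpinb branch stays inside the cell that makes it. H3K27-me3, trimethylation of lysine 27 of histone H3, is deposited by Polycomb complexes at silent genes and is removed by JMJD3, encoded by Kdm6b. Here the H3K27-me3 regions of fasted mouse liver were located around the Serpin genes. Protein-coding genes of chromosomes 1 to 19 whose annotated name is Serpin, a letter from a to i and a number were taken, which gave 60 of 20807 genes, with 94 start sites of protein-coding transcripts. Of these, 15 are made and secreted mainly by liver by textbook knowledge, and the other 45 were set against them.

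ChIP-seq, immunoprecipitation of chromatin followed by sequencing, was performed on livers of male C57BL/6 mice that carried floxed JMJD3 in both groups. At 8 weeks of age they received AAV-TBG-Cre (AAV-Cre), in which hepatocytes make Cre recombinase from the TBG promoter, or else the control virus AAV-GFP, and they were fasted for 16 h at 12 weeks after injection. Each group had 2 mice, with 2 H3K27-me3 and 2 input libraries per group and 8 libraries in all. The labels name primary liver cells, while the protocol starts from minced liver, so chromatin of non-hepatocytes, in which TBG is not active, was also present. In bulk chromatin, fewer cells that carry the mark and less mark per cell cannot be told apart.

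The data are 1 pooled list of enriched regions per group, without a value for each mouse. No difference between the groups could therefore be tested, and read depth is unknown. The AAV-Cre list held 59267 regions, whose median width was 753 bp, and 88.6% had a q-value of 0.05 or lower. The AAV-GFP list held 34586 regions, whose median width was 231 bp, and 46.8% reached that q-value. The excess of regions in AAV-Cre was thus a feature of the entire list, and each count of Serpin genes was read against the share of all genes marked by the same rule. As a check of the tissue label, 0 of 8 hepatocyte genes, including Alb and Apoa1, and 8 of 8 developmental regulators, including Pax6 and Hoxa9, had a region within 15 kb of a start site in both lists.

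The sequences just upstream of the start sites show how unlike the promoters of this family are. Those of Serpine2, Serpinh1, Serpina1f and Serpina3i are shown because their start sites lay inside an AAV-Cre region, and those of Serpinc1 and Serpina1a because they represent the liver-secreted genes, where no region was near. The start sites of Serpina16 and Serpinb6a also lay inside an AAV-Cre region. They are not shown, since the RefSeq start of Serpina16 was 623 bp from the nearest start site used here and the bases upstream of the marked RefSeq start of Serpinb6a overlap annotated exons. The bases are from RefSeq (GRCm38.p6), 5′ to 3′ on the strand of the gene. They end next to the RefSeq start site or, for Serpine2, next to the start site used here. Capitals mark CG dinucleotides, the sites of DNA methylation.
Serpine2 (chr1:79858697-79858915, minus strand): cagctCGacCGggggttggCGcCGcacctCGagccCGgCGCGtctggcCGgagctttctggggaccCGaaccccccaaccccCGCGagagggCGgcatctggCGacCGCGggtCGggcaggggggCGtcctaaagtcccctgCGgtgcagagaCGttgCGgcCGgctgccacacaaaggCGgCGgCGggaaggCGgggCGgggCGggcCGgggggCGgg
Serpinh1 (chr7:99353240-99353489, minus strand): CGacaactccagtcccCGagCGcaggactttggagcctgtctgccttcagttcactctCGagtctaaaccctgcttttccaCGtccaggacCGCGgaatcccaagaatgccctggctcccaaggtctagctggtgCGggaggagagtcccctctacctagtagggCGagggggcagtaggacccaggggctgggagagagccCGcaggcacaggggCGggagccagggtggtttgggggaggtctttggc
Serpina1f (chr12:103695530-103695779, minus strand): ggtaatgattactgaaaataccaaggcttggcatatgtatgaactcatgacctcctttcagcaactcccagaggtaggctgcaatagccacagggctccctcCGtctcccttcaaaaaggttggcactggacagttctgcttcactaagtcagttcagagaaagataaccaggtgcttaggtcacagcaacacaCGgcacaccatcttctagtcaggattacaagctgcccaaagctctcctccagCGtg
Serpina3i (chr12:104262872-104263121, plus strand): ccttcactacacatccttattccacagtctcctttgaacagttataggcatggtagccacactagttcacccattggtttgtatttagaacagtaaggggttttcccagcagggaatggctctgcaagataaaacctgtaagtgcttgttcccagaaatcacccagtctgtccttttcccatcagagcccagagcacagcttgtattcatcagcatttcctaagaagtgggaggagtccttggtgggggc
Serpinc1 (chr1:160978333-160978582, plus strand): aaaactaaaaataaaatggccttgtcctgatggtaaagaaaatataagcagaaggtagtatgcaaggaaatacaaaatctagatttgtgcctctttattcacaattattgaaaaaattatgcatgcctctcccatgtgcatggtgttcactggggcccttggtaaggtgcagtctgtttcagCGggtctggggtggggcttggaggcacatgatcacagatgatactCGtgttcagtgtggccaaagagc
Serpina1a (chr12:103863620-103863869, minus strand): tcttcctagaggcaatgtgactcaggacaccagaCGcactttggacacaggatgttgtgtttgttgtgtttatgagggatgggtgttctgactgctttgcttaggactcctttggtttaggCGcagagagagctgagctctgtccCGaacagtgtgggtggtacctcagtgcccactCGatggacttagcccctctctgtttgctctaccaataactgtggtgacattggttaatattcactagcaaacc
CG dinucleotides were dense at Serpine2 alone among these promoters, with 30 in the 219 bases shown. Serpinh1 had 11 in 250 bases, Serpina1f 3 and Serpina3i 0, against 2 at Serpinc1 and 4 at Serpina1a. The table of promoters held 51 of the 60 genes, and its median over all promoters of chromosomes 1 to 19 was 6 in 250 bases.

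Sites of H3K27-me3 were sparse around the Serpin genes. Within 15 kb of a start site, the window of the study, 13 of 60 members had a region in AAV-Cre (21.7%, Wilson 95% interval 13.1 to 33.6%), while 43.0% of all genes did. In AAV-GFP 4 of 60 members had a region (6.67%, 2.62 to 15.9%), while 28.9% of all genes did. These intervals cover counting error only, and neighbouring members share regions. The 4 members of AAV-GFP, Serpine2, Serpinb6a, Serpina16 and Serpina6, were also among the 13 of AAV-Cre, which left 9 members marked in AAV-Cre only and 0 in AAV-GFP only. Over all genes, 15.3% were marked in AAV-Cre only and 1.27% in AAV-GFP only, so the 15% of members marked in AAV-Cre only was close to the background. The remaining 47 members had no region in that window in either list.

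Closer to the start sites the order was alike. Within 1 kb, 6 of 60 members had an AAV-Cre region (10.0%) and 2 an AAV-GFP region (3.33%), and the background was 24.6% and 17.1% of all genes. Serpine2 and Serpinb6a were marked in both lists, while Serpinh1, Serpina16, Serpina1f and Serpina3i were marked in AAV-Cre only. This set made up 6.67% of the members against 7.80% of all genes, and the AAV-GFP list alone marked 0 members and 0.293% of all genes. The share of members marked in each list was below the background, and the share marked in AAV-Cre only was near it. Within 5 kb the lists marked 9 and 2 members against 31.0% and 21.2% of all genes, and within 50 kb 26 and 14 members against 63.8% and 48.3%. The median distance from a member to the nearest AAV-Cre region was 63.7 kb, while over all genes it was 23.9 kb. For AAV-GFP these medians were 159 kb and 53.8 kb.

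**Figure D1:**
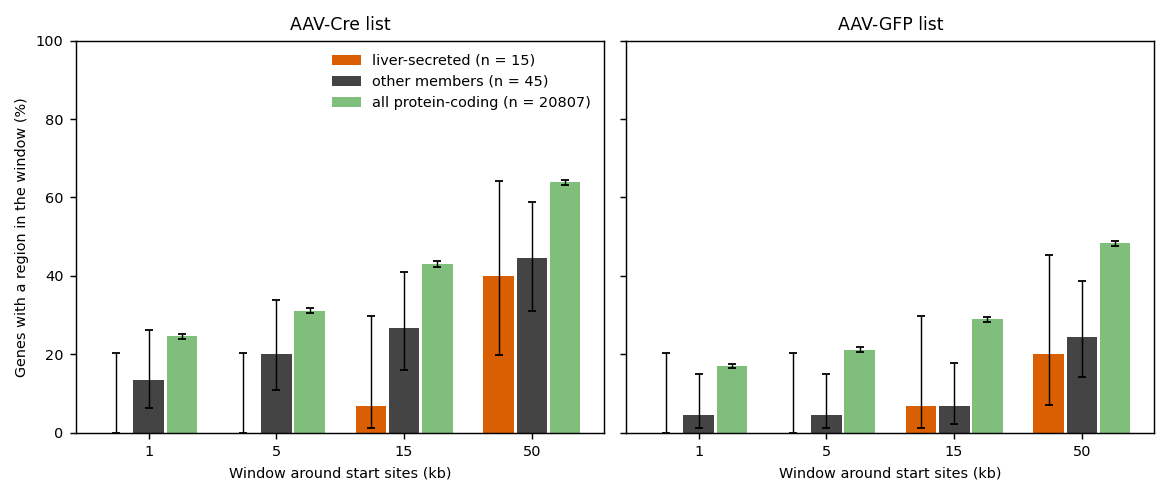
Percent of genes with an H3K27-me3 region within 1, 5, 15 and 50 kb of a start site, for the 15 liver-secreted Serpin genes, the other 45 members and all 20807 genes, in the AAV-Cre (left) and AAV-GFP (right) lists. Bars are shares and lines are Wilson 95% intervals, and both Serpin groups lie below all genes in each window of each list.

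Among the liver-secreted members, 0 of 15 had a region within 1 kb or 5 kb in either list, for which the Wilson interval reaches 20.4%. Within 15 kb only Serpina6, which encodes the corticosteroid carrier of plasma, had a region, at 10113 bp in AAV-Cre and 11843 bp in AAV-GFP. Both regions lay closer to the start of the neighbouring gene Serpina16, and the AAV-GFP region lay inside the AAV-Cre region. The other members were marked within 15 kb in 12 of 45 cases in AAV-Cre (26.7%, 16.0 to 41.0%) and in 3 of 45 in AAV-GFP (6.67%, 2.29 to 17.9%). The interval of the liver-secreted members in AAV-Cre, 1.19 to 29.8% around 6.67%, overlapped that of the others, and in AAV-GFP the share was the same. The median distance in AAV-Cre was 64401 bp for the liver-secreted members (quartiles 36560 and 138004 bp) and 63024 bp for the others (13009 and 179504 bp). In AAV-GFP it was 104 kb (quartiles 53127 and 214664 bp) and 180 kb (51568 and 374888 bp). Liver-secreted and other members therefore differed in the regions at their start sites by counts that their intervals do not separate.

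The liver-secreted inhibitors of coagulation, fibrinolysis and complement had no region within 15 kb in either list. In AAV-Cre all of them were farther from a region than the median of all genes (23.9 kb). In AAV-GFP, where that median was 53.8 kb, Serpind1, Serpina10 and Serping1 were nearer than it. Serpinc1, antithrombin, the main inhibitor of thrombin, was 161747 bp from the nearest AAV-Cre region and 162771 bp from the nearest AAV-GFP region. Serpind1, heparin cofactor II, which also inhibits thrombin, was at 52724 and 53203 bp. Both genes were about as far from the mark in the control list as in AAV-Cre. Serpinf2, α2-antiplasmin, the inhibitor of plasmin, was at 135971 and 265765 bp. Serpina10, the inhibitor that depends on protein Z, was at 35881 and 37611 bp, with Serpina16 closest to the region in each list. Serping1, the C1 inhibitor of complement and contact activation, was at 37394 and 39743 bp. Serpinf1, which encodes the antiangiogenic factor PEDF, was at 140036 bp in AAV-Cre and at 249417 bp in AAV-GFP. Outside the Serpina cluster these nearest AAV-Cre regions were closer to other genes, namely Ankrd45 for Serpinc1, Tmem191c for Serpind1, Pitpna for Serpinf2, Ypel4 for Serping1 and Rpa1 for Serpinf1.

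The genes of α1-antitrypsin, the plasma inhibitor of neutrophil elastase, are present in mice as tandem copies. Serpina1b lay nearest to the mark, 28967 bp from an AAV-Cre region, and Serpina1d followed at 64401 bp and Serpina1e at 94006 bp. Serpina1c and Serpina1a were at 148094 and 154360 bp. In AAV-GFP the distances ran from 68603 bp at Serpina1b to 287343 bp at Serpina1e. The antichymotrypsin-like genes stood at the other end of the cluster, with Serpina3n at 17674 bp, Serpina3m at 37239 bp and Serpina3k at 74819 bp from an AAV-Cre region, and at 53051, 72616 and 121294 bp from an AAV-GFP region. All 15 liver-secreted members were nearer to an AAV-Cre than to an AAV-GFP region, as were 34 of the other 45 members (75.6%) and 77.1% of all genes. The margins ran from 479 bp at Serpind1 to 193337 bp at Serpina1e, and the AAV-Cre list covered 2.98% and the AAV-GFP list 0.602% of chromosomes 1 to 19.

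**Figure D2:**
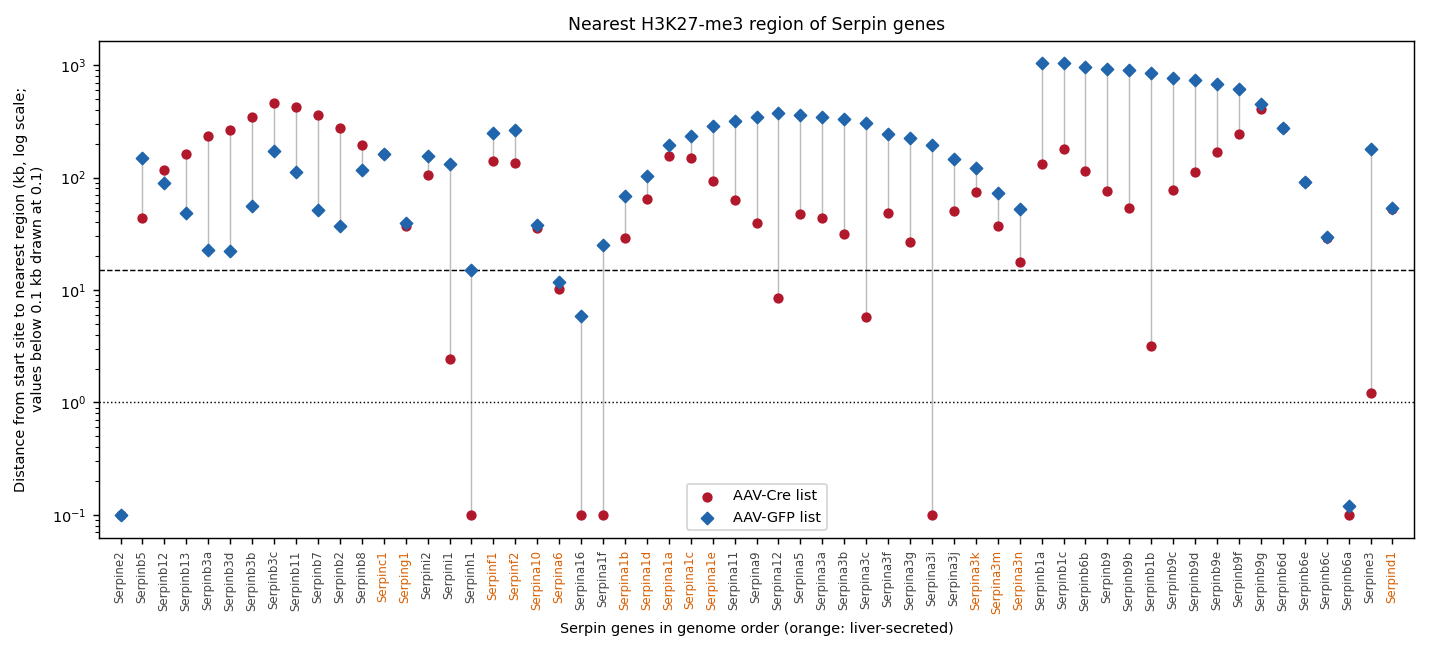
Distance in kb (log axis) from the start sites of the Serpin genes, in genome order, with 1 member not drawn, to the nearest region of the AAV-Cre (circles) and AAV-GFP (diamonds) lists, with liver-secreted genes named in orange. The dashed line is the 15 kb window and the dotted line the 1 kb window, and no liver-secreted gene lies below the dotted line.

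Absence of a region means less where reads cannot be placed. Of all 50-base windows within 1 kb of the start sites of Serpina1a to Serpina1e, only 48.2 to 83.7% occurred once in the genome (median 64.5%). At the other liver-secreted members this share was 86.0 to 100% (median 97.8%), and at Serpina16 and Serpina1f, which were marked, it was 100%. The treatment of reads with several matches is not given in the sources used here, and the part of repeated sequence in the unmarked state of the α1-antitrypsin copies was not tested.

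The likeness of these copies extends to the promoter. Over the 250 bases upstream, the 10 pairs among Serpina1a to Serpina1e had an identity of 72.8 to 93.2%. The pairs with Serpina1e had 72.8 to 77.6%, and all other pairs 88 to 93.2%. The letters GTTAAT, the core of the motif bound by the hepatocyte factor HNF1, were searched on both strands (ATTAAC on the other strand) in the 300 bases from 250 before to 50 after each start site. They were found in all of the α1-antitrypsin copies, in 0 of the other liver-secreted members in the table, in 5 of 41 other members and in 7.12% of 31396 promoters. The member counts are of genes, some with more than 1 promoter, and the background share is of promoters, so these are not like units. The stretch around the match, with the match in capitals, is shown because its letters were the same in each copy.
Serpina1a (chr12:103863623-103863652, minus strand): gtggtgacattgGTTAATattcactagcaa
Serpina1b (chr12:103738198-103738227, minus strand): gtggtgacattgGTTAATattcactagcaa
Serpina1c (chr12:103904960-103904989, minus strand): gtggtgacattgGTTAATattcactagcaa
Serpina1d (chr12:103773632-103773661, minus strand): gtggtgacattgGTTAATattcactagcaa
Serpina1e (chr12:103956958-103956987, minus strand): gtggtgacattgGTTAATattcactagcaa
The match lay 78 bases upstream of the RefSeq start site in Serpina1e and 16 (Serpina1d) to 27 bases (Serpina1c) upstream in the other copies. The upstream bases compared for Serpina1e were thus offset from those of the other copies, and the part of this in its lower identity was not tested. A match of letters is a description of the promoter and does not show that a factor binds there.

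Promoters rich in CpG sites were rare in the family. The observed/expected ratio of CpG within 500 bp exceeded 0.6 at 2 of 94 start sites of members (2.13%), namely Serpine2 at 0.829 and the distal start of Serpinb6a at 0.855, but at 47.7% of 39627 start sites of all genes. The median ratio was 0.155 for the members, 0.137 for the liver-secreted ones, and 0.573 for all genes. Among start sites at or below 0.6, an AAV-Cre region within 1 kb was present at 11 of 92 sites of members (12.0%) and at 22.3% of the sites of all genes. For AAV-GFP these shares were 3.26% and 12.6%. The lower share of marked members was therefore also seen among CpG-poor start sites.

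**Figure D3:**
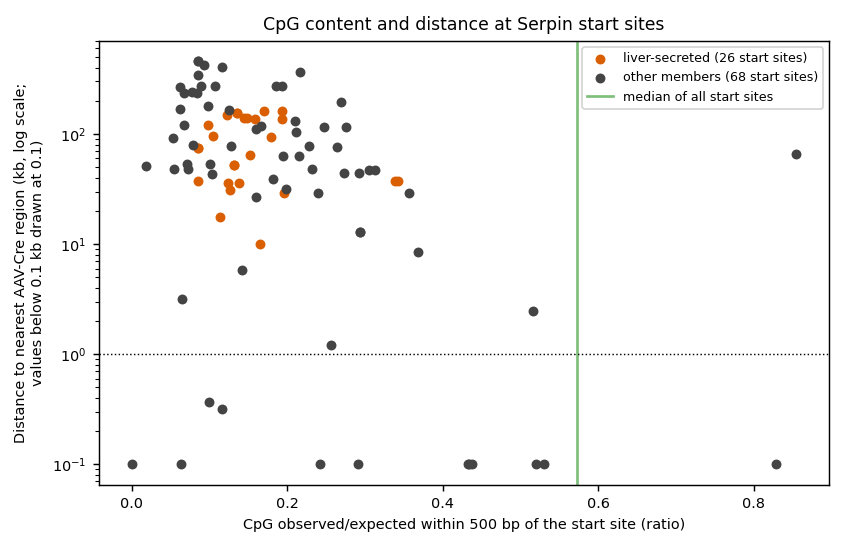
Distance in kb (log axis) to the nearest AAV-Cre region against the CpG observed/expected ratio within 500 bp, for 26 start sites of liver-secreted and 68 of other Serpin genes. The green line is the median of all start sites (0.573), and both points to its right with a ratio above 0.6 are Serpine2, which is marked, and the distal start of Serpinb6a, which is not.

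Outside the Serpina cluster, the regions with the lowest q-values lay at Serpinb6a, Serpine2 and Serpinh1 in AAV-Cre. Serpine2 encodes protease nexin-1, which inhibits thrombin and urokinase at cell surfaces. Its start site was inside a region of 2821 bp in AAV-Cre (chr1:79857707-79860527, mm10), with a fold enrichment over input of 7.48 and a q-value of 1.13e-24. In AAV-GFP its start site was inside a region of 1666 bp (chr1:79858363-79860028) with a fold of 4.03 and a q-value of 1.45e-07. The AAV-GFP region lay within the AAV-Cre region, over the exon with untranslated sequence. Folds are given within each list and were not compared between lists. In both lists Serpine2 thus had the mark over its CpG-rich start, with a percentile by p-value of 95.7 among the AAV-Cre regions and 92.3 among the AAV-GFP regions.

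Serpinb6a, an intracellular inhibitor of serine proteases, was also marked in both lists. The AAV-Cre region (chr13:33934540-33937075) was 2536 bp wide, had a fold of 5.95 and a q-value of 2.68e-25, and covered all 3 of the gene's inner start sites. The AAV-GFP region (chr13:33935411-33935877) was 467 bp wide, with a fold of 3.19 and a q-value of 0.000172, and lay 119 bp from the nearest start. The outermost start of the gene, at position 34002794, was 65719 bp from the AAV-Cre region and 66917 bp from the AAV-GFP region. The mark was thus at the inner, CpG-poorer starts (ratios 0.433 to 0.531) and not at the outermost start with its ratio of 0.855.

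Serpinh1 encodes HSP47, the collagen chaperone of the endoplasmic reticulum, which inhibits no protease. In AAV-Cre both of its start sites lay in a region of 2673 bp (chr7:99351243-99353915) with a fold of 4.43 and a q-value of 3.64e-09. Another 4 AAV-Cre regions followed upstream within 15 kb, of 519 to 1158 bp and with q-values from 1.48e-06 to 0.0573. The AAV-GFP list had its nearest region 15205 bp away, just outside the window, and was closer to the start of Gdpd5. The absence of Serpinh1 from the AAV-GFP members therefore rests on the window at 15 kb, but not at 1 kb.

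Serpine3, Serpini1 and Serpinb1b, also marked in AAV-Cre only, had narrow regions. Their folds of 2.64 (Serpini1) and 2.77 (Serpine3 and Serpinb1b) were slightly below the median of 2.90 of the AAV-Cre list. Serpine3 had a region of 419 bp over an exon, 1212 bp from its start, with a q-value of 0.00299. Serpini1, neuroserpin, an inhibitor of tissue plasminogen activator made by neurons, had a region of 344 bp in an intron at 2446 bp with a q-value of 0.0086. Serpinb1b had a region of 344 bp at 3182 bp with a q-value of 0.00299. Each of these regions was narrower than the median AAV-Cre region of 753 bp, and none overlapped an AAV-GFP region.

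By place in the genome, 49 members fell into 3 clusters, taken as runs of at least 5 members less than 500 kb apart, and 11 stood outside them. Outside the clusters, 5 of 6 members that are not liver-secreted were marked within 15 kb in AAV-Cre and 1 of 6 in AAV-GFP, against 43.0% and 28.9% of all genes. Of the 5 liver-secreted ones there, 0 were marked in either list. Together, 5 of the 11 members outside the clusters were marked in AAV-Cre, near the share of all genes, and 1 of 11 in AAV-GFP. In the clusters 8 of 49 members were marked in AAV-Cre and 3 of 49 in AAV-GFP. In AAV-Cre the share marked was thus lower in the 3 clusters, where neighbouring members share regions, than among the 11 members outside them. With so few members outside, whether the low share of the family is limited to the clusters was not tested.

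The Serpina cluster on chromosome 12 (chr12:103614786-104414329, 799.5 kb) held 23 members, 10 of them liver-secreted, and no other protein-coding gene. It had 16 AAV-Cre regions that covered 3.18% of its bases, close to the 2.98% of chromosomes 1 to 19. AAV-GFP had 1 region in the cluster, which covered 0.0627% against 0.602% of chromosomes 1 to 19. The mark was not spread over the cluster. A block of 13 AAV-Cre regions around Serpina16 and Serpina1f (chr12:103667325-103709191, 41.9 kb) held 93.6% of the marked bases of the cluster. Within the block the regions covered 56.9% of the bases, and outside it 0.216% of the cluster was covered.

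The widest region of the block measured 10115 bp (chr12:103667325-103677439), with a fold of 6.17 and a q-value of 1.24e-17, and covered the exons and both start sites of Serpina16. The only AAV-GFP region of the cluster (chr12:103669055-103669555) lay within it, over an exon of Serpina16, and was 501 bp wide with a fold of 2.95 and a q-value of 0.00991. The next in strength were a region of 2581 bp between Serpina16 and Serpina1f (fold 5.47, q = 1.4e-13) and a region of 2196 bp over the 3′ part of Serpina1f (fold 4.21, q = 1.73e-08). A region of 1326 bp covered the outermost start site of Serpina1f (chr12:103695037-103696362) with a fold of 3.30 and a q-value of 8.44e-05. At least 97.4% of the 50-base windows of each region in the block occurred once in the genome. AAV-GFP had no region at Serpina1f, its nearest being the 501-bp region in Serpina16, 25111 bp away.

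Liver-secreted genes stood on both sides of the block. It began 10.1 kb from the start of Serpina6 and ended 18.97 kb before the 3′ end of Serpina1b. From its end, 343.8 kb followed without an AAV-Cre region, a stretch with all start sites of 8 members, Serpina1a to Serpina1e, Serpina11, Serpina9 and Serpina12. The 3 remaining AAV-Cre regions of the cluster were small. That of Serpina12, which encodes vaspin, was 532 bp wide at 8538 bp from the start, had a q-value of 0.023 and was 88.7% masked repeat. That of Serpina3c was 359 bp wide at 5792 bp with a q-value of 0.0116. That of Serpina3i covered the start site (chr12:104262926-104263667, 742 bp), but its q-value of 0.0573 put it at rank 52731 of 59267 regions.

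**Figure D4:**
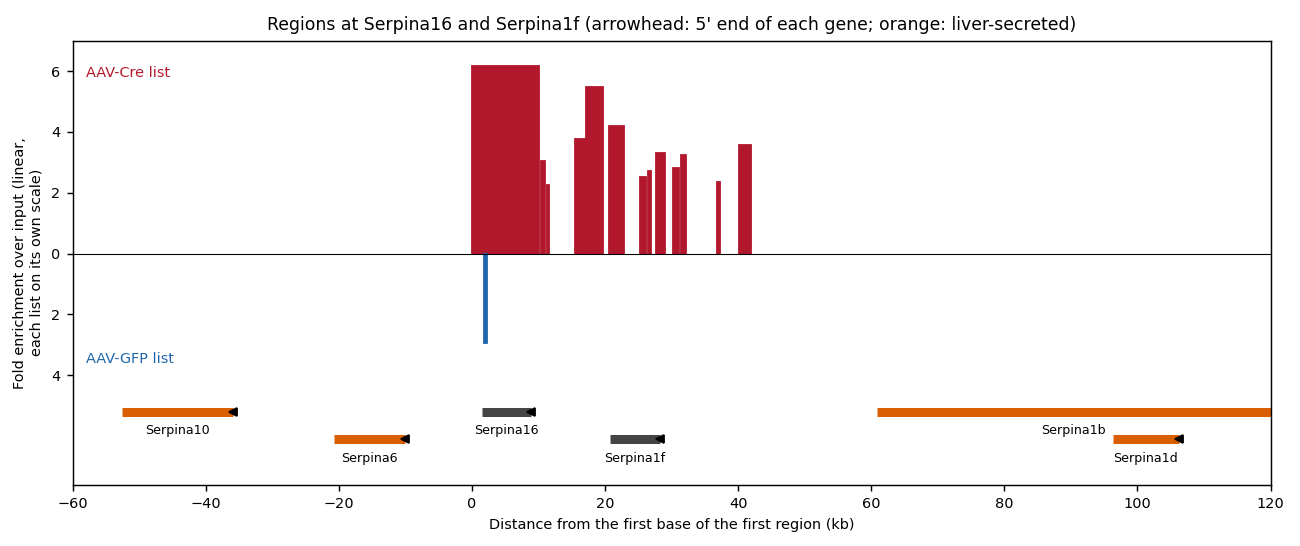
Fold enrichment over input (linear) of the regions near Serpina16 and Serpina1f, AAV-Cre upwards and AAV-GFP downwards. Both lists are drawn with the same axis spacing, but folds are not compared between lists. The horizontal axis is the distance in kb from the first base of the first region, with the genes below (liver-secreted in orange, arrowheads at 5′ ends). The 13 AAV-Cre regions lie over, between and upstream of Serpina16 and Serpina1f, and the single AAV-GFP region lies at the 3′ end of Serpina16.

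The Serpinb clusters hold the intracellular branch. In AAV-Cre a smaller share of them was covered than of the Serpina cluster with its block, though not than of that cluster outside the block in the case of chromosome 13. The cluster on chromosome 1 (chr1:106861173-107610484, 749.3 kb, 11 members) had 0 AAV-Cre regions over its full length. It had 3 AAV-GFP regions of 120 to 136 bp that covered 0.0508% of it. Their q-values were 0.182, 0.192 and 0.612, and the nearest members, at 22021 to 37031 bp, were Serpinb3d, Serpinb3a and Serpinb2. All of them were narrower than 300 bp, the smallest width in the AAV-Cre list. The cluster on chromosome 13 (chr13:32842092-34002794, 1160.7 kb) held 15 members and the genes Gm11397, Nqo2 and Ripk1. Its 2 AAV-Cre regions, at Serpinb1b and Serpinb6a, covered 0.248%, and its AAV-GFP region at Serpinb6a covered 0.0402%. An unbroken 853.6 kb between Serpinb1b and Serpinb6a had no AAV-Cre region. Both clusters thus lay below the covered share of chromosomes 1 to 19 in each list. Of their 50-base windows 85.5% and 69.9% occurred once in the genome, against 80.1% in the Serpina cluster, and the part of this in the scarcity of regions was not tested.

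**Figure D5:**
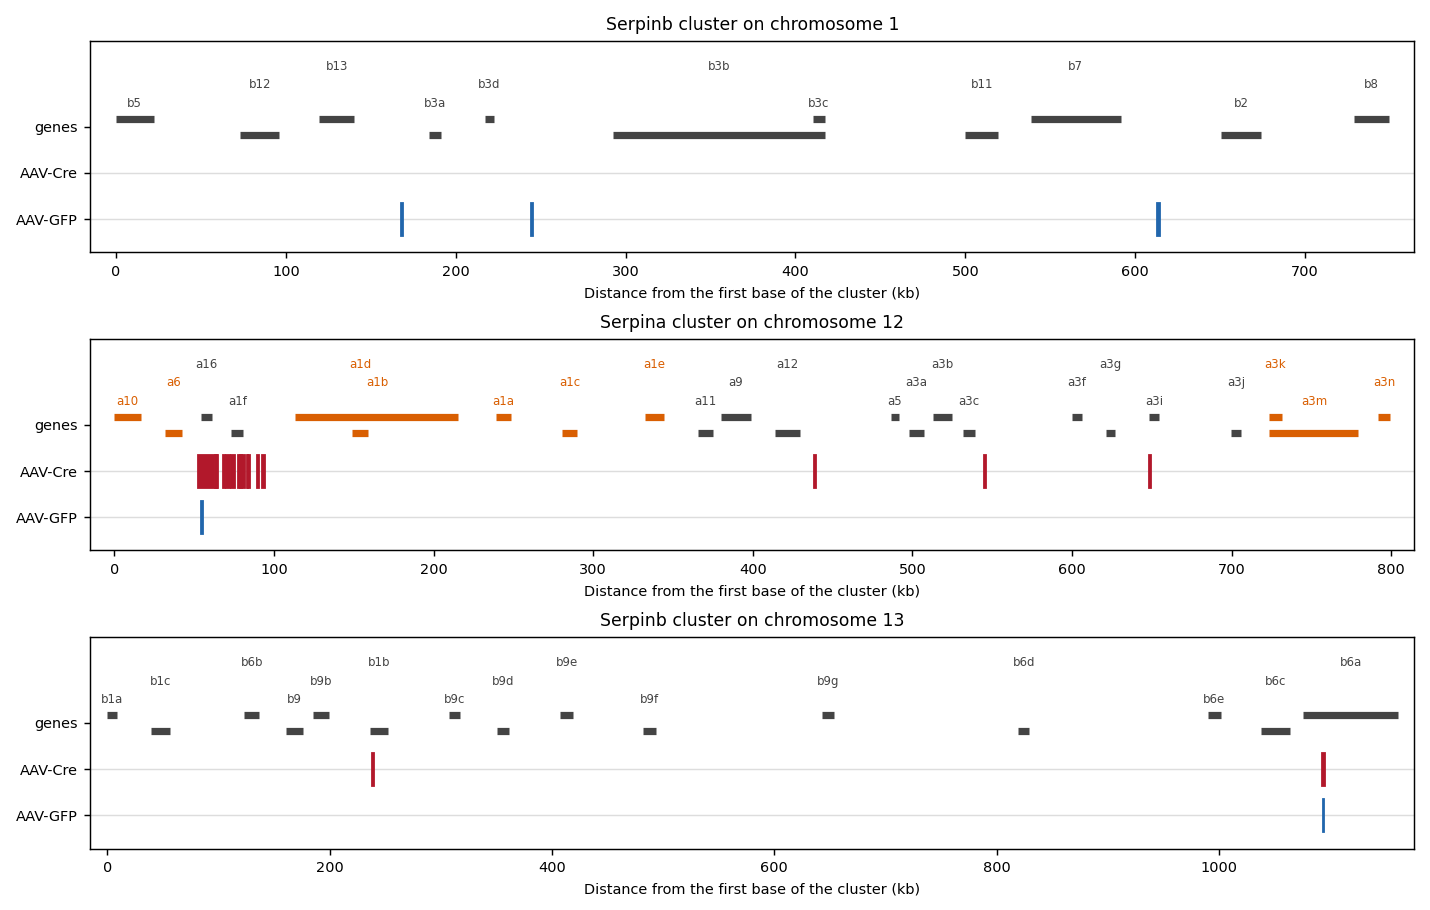
Maps of the Serpinb cluster on chromosome 1, the Serpina cluster on chromosome 12 and the Serpinb cluster on chromosome 13, in kb from the first base of each cluster, with genes (liver-secreted in orange), AAV-Cre regions and AAV-GFP regions in rows, and regions too narrow to see drawn wider than to scale. The AAV-Cre regions gather at Serpina16 and Serpina1f, and the chromosome 1 cluster has AAV-GFP regions only.

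The proteases that serpins inhibit, and their cofactors, were listed by the cells that make them. Of 10 proteases made by liver, among them prothrombin (F2), plasminogen (Plg) and the complement protease gene C1ra, 1 had an AAV-Cre region within 15 kb and 0 an AAV-GFP region. This was Hgfac, which encodes the activator of hepatocyte growth factor, at 13355 and 15221 bp. Of 12 proteases of other cells, 6 had an AAV-Cre and 5 an AAV-GFP region. Over all genes the shares were 43.0% and 28.9%, so 6 of 12 was near the background in AAV-Cre. Plat and Plau, which encode tissue plasminogen activator and urokinase, and Tpsb2, a mast cell tryptase, were marked within 1 kb in both lists. The neutrophil genes Prtn3 (2332 and 4392 bp) and Elane (3140 and 11025 bp) were marked within 15 kb in both, whereas the mast cell chymase Cma1 was marked in AAV-Cre (1337 bp) but not in AAV-GFP (26587 bp). Of 5 cofactors and receptors, Thbd, the thrombin receptor thrombomodulin of endothelium, was marked at its start in both lists. Vtn, the plasma protein vitronectin, was 1726 and 1885 bp from a region, although it is made by liver. Whether the start of another gene lies closer to these regions was not examined.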

How the data were processed

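H3K27-me3 ChIP-seq libraries and inputs of 2 mice per group were processed by the authors with the AQUAS pipeline for histone marks. Reads were mapped to mm10 with BWA (0.7.13), and post-alignment filters used SAMtools (1.2) and Picard (1.126). MACS then called peaks against a pooled input. Peaks that overlapped across replicates were kept, so the 2 deposited lists pool both mice of a group. The deposited columns used were position, fold enrichment over input (a linear ratio), the −log10 p-value and the −log10 q-value as written by the authors' peak caller. Calling narrow peaks splits a broad domain into several regions. Read length, depth and the treatment of reads with several matches are not given in the sources used here.

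Genes and start sites were those of basic protein-coding transcripts in GENCODE M21 on GRCm38, the assembly of mm10. A gene was marked when a region lay within 15 kb (or 1, 5 or 50 kb) of any start site. Regions overlapped when they shared at least 1 bp. Shares have Wilson 95% intervals. No test was made between groups, which have 1 list each. CpG ratios used 500 bp on each side of a start site, and 50-base windows were called unique when they occurred once in the assembly on either strand. Promoter sequences were from RefSeq and matched 51 of 60 members by symbol. Python 3.11.15 with numpy 2.4.6, pandas 2.3.3, scipy 1.17.1 and Biopython 1.88 were used, and the functions were tested on simulated data, where 100% of calls for 1481 genes and 100% of 9808 windows were recovered. The members and gene lists were chosen with earlier results of these data known. Named were all liver-secreted members, members marked within 1 kb or in 1 list only, the 3 strongest regions of each list in each cluster and the members nearest to them, and genes closer to such a region or inside a cluster. A member that this rule selects is counted but not described here. Alternatives were q-value thresholds of 0.05 and 0.01, equal numbers of top regions, a width of at least 300 bp, outermost start sites, other windows, other liver lists, merging within 1 kb and clusters widened by 50 kb.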

Additional observations from a re-analysis of the deposited data

How the results depend on the processing

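Of the alternative counts and covered shares, 145 stayed within 1.5 times the reported value and 23 did not. With the same number of top regions in each list, the members marked within 15 kb in AAV-Cre only fell from 9 to 5. All of them were outside the liver-secreted list (5 of the other members), without Serpina12, Serpina3c, Serpina3i and Serpini1. The proteases and cofactors marked in AAV-Cre only numbered 1 in place of 2. The share of all genes under this rule was not obtained, so neither fall was read against a background. A q-value of 0.05 or lower removed Serpina3i, and 0.01 or lower also Serpina12 and Serpina3c. At 5 kb, 2 members were marked in AAV-GFP, and 0 liver-secreted members in AAV-Cre and 0 in AAV-GFP. At 50 kb, 26 of 60 members were marked in AAV-Cre and 14 in AAV-GFP. Those marked in AAV-Cre only numbered 16 (26.7%, against 17.7% of all genes). Those marked in AAV-GFP only numbered 4 (6.67%, against 2.18% of all genes). Of the 15 liver-secreted members, 6 were marked in AAV-Cre (40.0%), 3 in AAV-GFP and 3 in AAV-Cre only. Of the 45 other members, 20 were marked in AAV-Cre (44.4%), 11 in AAV-GFP and 4 in AAV-GFP only. The 4 with an AAV-GFP region only were Serpinb13, Serpinb2, Serpinb3a and Serpinb3d, of the chromosome 1 cluster. With the outermost start of each gene alone, 0 members were marked within 1 kb in AAV-GFP. At Serpinb6a the marked starts were inner ones. Serpine2 had 1 start site of protein-coding transcripts, at position 79858696, but its annotated gene extends further upstream, to position 79861180. Adding Serpina11, Serpina3c, Serpina12 and another member to the liver-secreted list gave 4 marked members in AAV-Cre, 3 of them in AAV-Cre only. The chromosome 1 Serpinb cluster was covered to 0.0988% by AAV-Cre when widened by 50 kb, and to 0% by AAV-GFP with a q-value of 0.05 or 0.01 or a width of at least 300 bp.

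No paired analysis was possible because each list joins both mice into a single set of regions, and for the same reason no list without either mouse was made. The depth is unknown, so whether regions missing from the AAV-GFP list lay under its detection limit was not tested.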

Other observations

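Serpina7, which encodes the thyroxine-binding globulin of plasma, lies on chromosome X and was therefore outside the genes counted. Its start site was 9267 bp from the nearest AAV-Cre region and 785910 bp from the nearest AAV-GFP region.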
